A study of Homo sapiens with 2 samples.

Results

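The formins are a family of actin nucleators, and this account describes 10 of them, DIAPH1, DIAPH2, DIAPH3, DAAM1, DAAM2, FMNL1, FMNL2, FMNL3, INF2 and FHOD1, in MCF-10A, an established human line of breast epithelial cells that does not form tumours. They were chosen by name, as all array features annotated to these genes, and 9 of the 10 were measured among 14812 named genes. INF2, which acts on the endoplasmic reticulum and in mitochondrial fission, was not analysed here. Of 2 stable lines, 1 carried EGFP alone (EGFP vector) and 1 carried ARHGAP4, a GTPase-activating protein, as a fusion to EGFP (EGFP-ARHGAP4). RNA of each line was hybridised to 1 whole-transcript array, called the vector array and the ARHGAP4 array below. The promoter of the construct and whether a line is a clone or a pool are not stated in the labels. With 1 array per group there is no test, no p-value and no replicate error, and every difference below is between these 2 arrays only.

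Formins build unbranched actin filaments. The FH2 domain starts a filament and stays on its growing end, and the proline-rich FH1 domain feeds it with actin bound to profilin. Many formins fold back on themselves and stay inactive until a bound activator opens them. In epithelial cells formins are known for stress fibres, filopodia, junctions and the ring that divides the cell.

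DIAPH3 stood out with a 2.24-fold lower value in the ARHGAP4 array, followed by DAAM1 at 1.68-fold lower, and these were the only measured members of the 10 that differed by at least 0.5 on the log2 scale. DIAPH2 and FMNL2 were lower by less. FMNL1 and FHOD1 had the highest differences, at 1.30-fold and 1.29-fold higher. To show the regulatory sequence of the members at either end, the 250 bases before the gene start are printed for the 2 lowest and the 2 highest of the members above the level filter. They are RefSeq sequences of GRCh38.p14, written 5′ to 3′ along the gene's own strand, with every CCAAT box (CCAAT on either strand, so ATTGG as read here) in capitals. DIAPH3 lies on the minus strand at chr13:60163929-60164178, DAAM1 on the plus strand at chr14:59188417-59188666, FHOD1 on the minus strand at chr16:67247482-67247731 and FMNL1 on the plus strand at chr17:45221635-45221884.
DIAPH3: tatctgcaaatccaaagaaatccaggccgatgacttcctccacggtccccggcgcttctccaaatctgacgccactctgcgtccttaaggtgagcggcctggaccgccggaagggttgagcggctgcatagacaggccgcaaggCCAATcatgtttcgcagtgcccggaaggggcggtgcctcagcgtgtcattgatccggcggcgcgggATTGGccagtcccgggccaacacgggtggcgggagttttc
DAAM1: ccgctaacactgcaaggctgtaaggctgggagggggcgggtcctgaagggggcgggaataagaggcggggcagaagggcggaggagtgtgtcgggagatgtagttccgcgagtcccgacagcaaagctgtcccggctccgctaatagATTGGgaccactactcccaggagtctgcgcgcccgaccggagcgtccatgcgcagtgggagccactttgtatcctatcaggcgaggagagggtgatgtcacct
FHOD1: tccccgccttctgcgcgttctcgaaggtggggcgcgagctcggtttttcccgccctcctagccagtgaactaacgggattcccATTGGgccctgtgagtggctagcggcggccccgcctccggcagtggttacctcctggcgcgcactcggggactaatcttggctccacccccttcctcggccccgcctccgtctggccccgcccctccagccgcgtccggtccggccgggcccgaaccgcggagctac
FMNL1: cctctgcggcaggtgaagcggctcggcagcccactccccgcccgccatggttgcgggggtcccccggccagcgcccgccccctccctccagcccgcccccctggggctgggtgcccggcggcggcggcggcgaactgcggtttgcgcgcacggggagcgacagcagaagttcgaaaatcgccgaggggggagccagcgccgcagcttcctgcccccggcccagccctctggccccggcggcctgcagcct

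The DIAPH3 stretch held 2 CCAAT boxes, which begin 106 and 40 bases before the start. DAAM1 held 1 at 103 bases, FHOD1 held 1 at 167 bases, and FMNL1 held none. Among all 10 formins, taking the window at each gene's outermost start, 4 held a CCAAT box (DIAPH1, DIAPH3, DAAM1 and FHOD1), and the share over 35116 RefSeq windows of the same length was 32.0%. Those windows come from 27305 genes, so a gene with several starts counts more than once there, while each formin counts once. The GC box GGGCGG was found on either strand in 9 of the 10, INF2 being the exception, and in 42.6% of all windows. The 10 windows ran from 61.2% G and C in INF2 to 79.2% in FMNL3, all above the median of 58.0% over all windows. A motif of only G and C is likelier in such windows. The cell cycle homology region, searched on both strands as TTTGAA or TTCGAA, was present in DIAPH2 and FMNL1 and in 14.3% of all windows. An E2F motif, searched on both strands as TTTCCCGC, TTTGGCGC, TTTCGCGC or TTTGCCGC, was present in FHOD1 alone and in 2.79% of all windows. The CArG box, the letters bound by SRF, was found in none of the 10 and in 1.16% of all windows. No searched motif was thus held by both lower members and lacked by both higher ones. The stretches of DIAPH3 and DAAM1 had 62.4% and 62.8% G and C, and those of FHOD1 and FMNL1 had 70.8% and 78.0%, against a median of 58.0% over all windows. A match describes letters, not binding.

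The table holds 44629 features with a median log2 value of 2.88 in each array. ARHGAP4, the introduced gene, went with the labels, with a log2 value of 4.49 in the vector array and 6.68 in the ARHGAP4 array, 4.56-fold higher. How much of that signal came from the construct is not stated. A gene passed the level filter when the higher of its values reached 4.02, the median of all gene values, and 7685 genes passed. Their differences, given throughout as EGFP-ARHGAP4 minus EGFP vector, had a median of -0.10 and quartiles of -0.29 and 0.12. For the 336 passing genes that have more than 1 feature, the difference varied within a gene with a pooled SD of 0.21, which describes the same arrays and not separate cultures. All 7 measured mammary epithelial markers, of 12 listed, passed the filter, among them KRT5 at 8.33 and 8.34. The members furthest from 0 were KRT14 at 9.21 and 6.96, EPCAM at 6.58 and 7.79, VIM at 7.23 and 6.59 and KRT8 at 5.06 and 5.43. Fibroblast markers passed in 0 of 3 measured cases and adipocyte markers in 0 of 5, endothelial markers in 2 of 6 (KDR and CLDN5) and immune markers in 3 of 4 (CD14, CD68 and LAPTM5). On the unlogged scale the fibroblast markers summed to 23.0 in the vector array and 22.5 in the ARHGAP4 array, the adipocyte markers to 37.8 and 29.9, the endothelial markers to 71.3 and 111.9, and the immune markers to 249.5 and 372.5. KDR, which passed the filter only in the ARHGAP4 array, was higher there by 2.27, and the other 5 endothelial markers summed to 61.1 and 62.4. Without LAPTM5, the other 3 immune markers summed to 227.6 and 282.2. The mammary epithelial markers summed to 2026.1 in the vector array and 1732 in the ARHGAP4 array. Without KRT14 they summed to 1432.4 and 1607.3, so the direction of that sum rested on KRT14. The part of these markers in the formin values was not tested, and PTPRC, PECAM1, TP63 and CDH1 were not analysed here. In bulk RNA, fewer cells that hold a transcript and less of it per cell cannot be told apart.

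**Figure D1:**
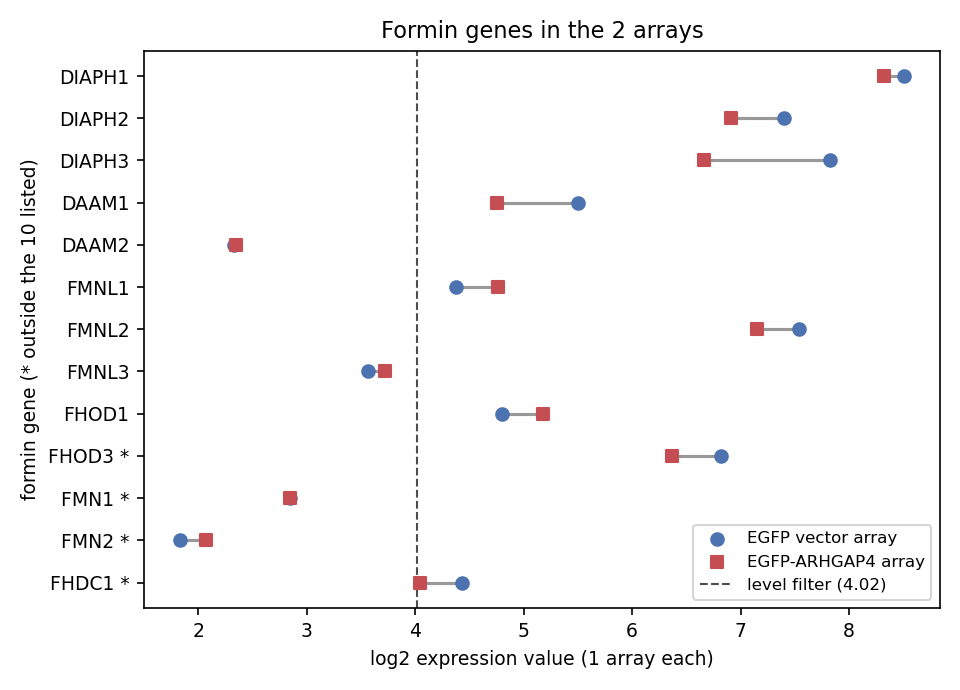
Log2 expression value (horizontal axis) of each measured formin gene in the vector array (circle) and the ARHGAP4 array (square), 1 array each, with the level filter as a dashed line; genes marked * are outside the 10 listed. DIAPH3 shows the widest gap, 7.83 against 6.67, and DAAM2 and FMNL3 lie left of the filter in both arrays; positions of different genes are not comparable, since each rests on its own probes.

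Of the 9 measured members, 7 lay above the filter in both arrays, so none passed through 1 array alone, and DAAM2 and FMNL3 lay below it in both. Each rested on 1 feature. Of the 9, 2 were lower by at least 0.5, where 6.47% of all measured genes were; 0 were higher by that much, where 4.25% were. Of the 7 past the filter these were again 2 and 0, against 9.81% and 5.15% of the genes past the filter. At 2-fold, 1 was lower and 0 higher, against 0.794% and 1.0%. With so few members, 1 gene more or less moves such a share widely. The split of the background depends on the scaling: of the genes past the filter that differed by at least 0.5, 34.4% were higher as deposited, 51.7% after quantile normalization, 57.6% after centring and 53.0% after loess. At 2-fold these shares were 55.8%, 67.2%, 71.3% and 68.9%. The median difference of the 9 was -0.18 (mean -0.23), beside -0.03 for all measured genes, and that of the 7 was -0.39, beside -0.10 for the genes past the filter. The median of the 9 was -0.10 after quantile normalization, -0.08 after centring and -0.05 after loess, where that of all measured genes was 0.00, 0.07 and -0.01.

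The Diaphanous formins DIAPH1, DIAPH2 and DIAPH3 nucleate and elongate filaments, and each had a difference below 0, by unequal amounts. DIAPH3, which is known for filopodia and for the contractile ring of dividing cells, had a log2 value of 7.83 in the vector array and 6.67 in the ARHGAP4 array (feature 16779546). Its difference was -1.16. Only 30 of the 7685 genes, DIAPH3 included, were as low or lower. Of those 30, 13 lie on chromosome 10, whereas 7378 of the 7685 genes lie off it. DIAPH3 lies on chromosome 13, and without chromosome 10, an alternative added after seeing the data, it was among the 17 lowest of 7378 genes.

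DIAPH2, which is known from ovarian function and from the attachment of chromosomes to the spindle, stood at 7.40 in the vector array and 6.91 in the ARHGAP4 array (feature 17105284). Its difference of -0.49 fell just short of 0.5, and 10.2% of the genes past the filter were as low or lower. DIAPH1, known for stress fibres and stable microtubules, stood at 8.50 and 8.32 (feature 17000858). Its difference of -0.18 was smaller than the 0.21 by which features of a gene disagreed, it was -0.05 after loess, and 38.6% of the genes were as low or lower. The Diaphanous genes therefore spanned 0.98 on the log2 scale, the widest range of the DIAPH, DAAM, FMNL and FHOD groups. These groups held 3, 2, 3 and 2 measured genes, and a range grows with the number of genes. The DAAM range used DAAM2, which lay below the filter, and the FHOD range used FHOD3, which is not among the 10.

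In the DAAM group, which links Dishevelled and Wnt signals to actin, DAAM1 stood at 5.50 in the vector array and 4.75 in the ARHGAP4 array (feature 16784787). Its difference was -0.75, and 202 of 7685 genes, or 2.63%, were as low or lower. Without chromosome 10 these were 161 of 7378. Its paralog DAAM2 stood at 2.33 and 2.35, below the filter in both arrays, so a difference could not be read there.

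The FMNL formins act at the leading edge and in filopodia, and they did not share a direction. FMNL2, an effector of CDC42 in lamellipodia, stood at 7.53 in the vector array and 7.15 in the ARHGAP4 array, a difference of -0.39, with 16.5% of the genes as low or lower. FMNL1, best known from blood cells, stood at 4.38 and 4.76, a difference of 0.38, with 8.39% of the genes as high or higher. In both arrays FMNL1 lay less than 1 log2 unit above the filter. LAPTM5, another gene known from blood cells, was higher by 2.05 and CD68 by 0.48, while CD14 was at -0.35. Their part in the FMNL1 value was not tested. FMNL3, known from filopodia and endothelial cells, stood at 3.57 and 3.73, below the filter.

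FHOD1, which is known to bundle actin in stress fibres under ROCK, stood at 4.80 in the vector array and 5.17 in the ARHGAP4 array (feature 16827299). It was 0.37 higher, with 8.77% of the genes as high or higher. In the vector array FHOD1 lay less than 1 log2 unit above the filter. The paralog of FHOD1, FHOD3, the formin of heart muscle sarcomeres, which is not among the 10, moved the other way, from 6.82 to 6.37, a difference of -0.45. Of the remaining formins, FMN1 had the same value of 2.85 to the last digit in both arrays, as did 6.96% of all features. FMN2, known from oocyte spindle positioning, stood at 1.83 and 2.08, and both genes lay below the filter. GRID2IP was not analysed here. FHDC1, added after its values were seen, stood at 4.44 and 4.05, a difference of -0.39. It lay only 0.41 above the filter in the vector array and 0.03 above it in the ARHGAP4 array.

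**Figure D2:**
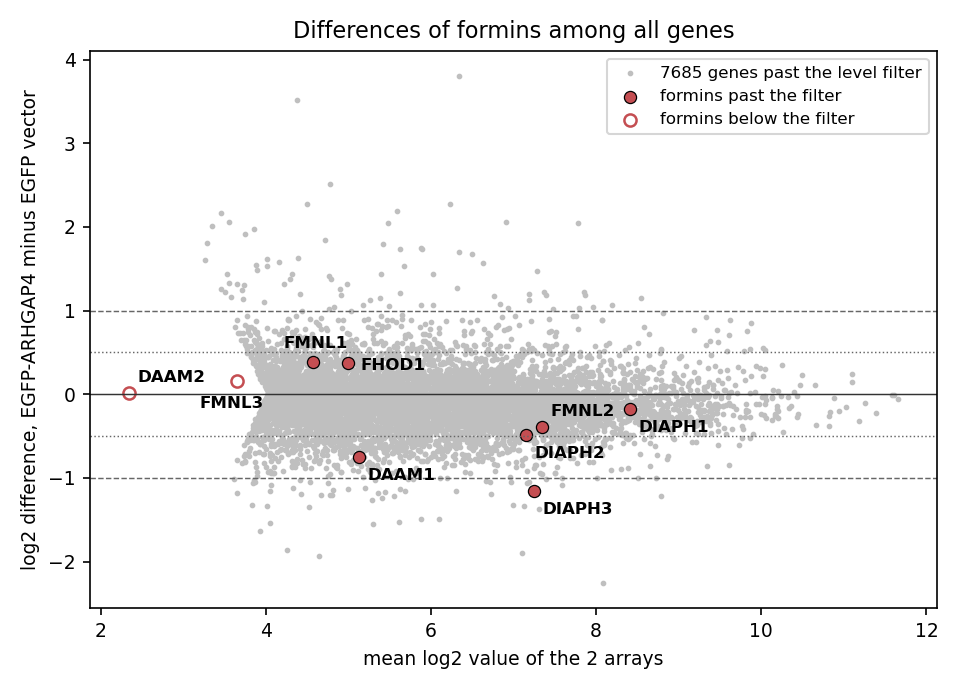
Log2 difference, EGFP-ARHGAP4 minus EGFP vector (vertical axis), against the mean log2 value of both arrays (horizontal axis) for the 7685 genes past the level filter (grey) and the 9 measured formins (red, open where below the filter); dotted and dashed lines mark differences of 0.5 and 1. DIAPH3 at -1.16 lies below the dashed line, DAAM1 at -0.75 between the lines, and the other formins within 0.5 of 0.

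Each member was also set beside the 5 nearest named genes past the filter on either side. A member near either end of all genes past the filter will often lie beyond all 10 neighbours, so these places add little. No formin among the 10 lies on chromosome 10 itself. The 10 neighbours of DIAPH3 on chromosome 13 had a median of -0.39 and ran from -0.71 to 0.30, with 9 below 0 and 2 lower by at least 0.5. The 134 other genes of chromosome 13 past the filter had a median of -0.22. DIAPH3 was below all 10 neighbours, and 0.77 below their median. Whether the differences of these neighbours have a part in the DIAPH3 value was not tested.

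The 10 neighbours of DAAM1 on chromosome 14 ran from -0.39 to -0.03 with a median of -0.19, and DAAM1 was 0.56 below that median and below each of them. DIAPH2, on the X chromosome, had 2 of 10 neighbours lower than itself and lay 0.35 below their median of -0.14. FMNL2, on chromosome 2, also had 2 lower neighbours and lay 0.19 below their median. FMNL1, on chromosome 17, was above all 10 of its neighbours and 0.47 above their median of -0.09. FHOD1, on chromosome 16, was above 9 of 10 and 0.30 above a median of 0.07. DIAPH1, on chromosome 5, had neighbours with a median of 0.08, and 2 of the 10 were lower than DIAPH1. FHOD3, outside the 10 listed formins, was also below all 10 of its neighbours.

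**Figure D3:**
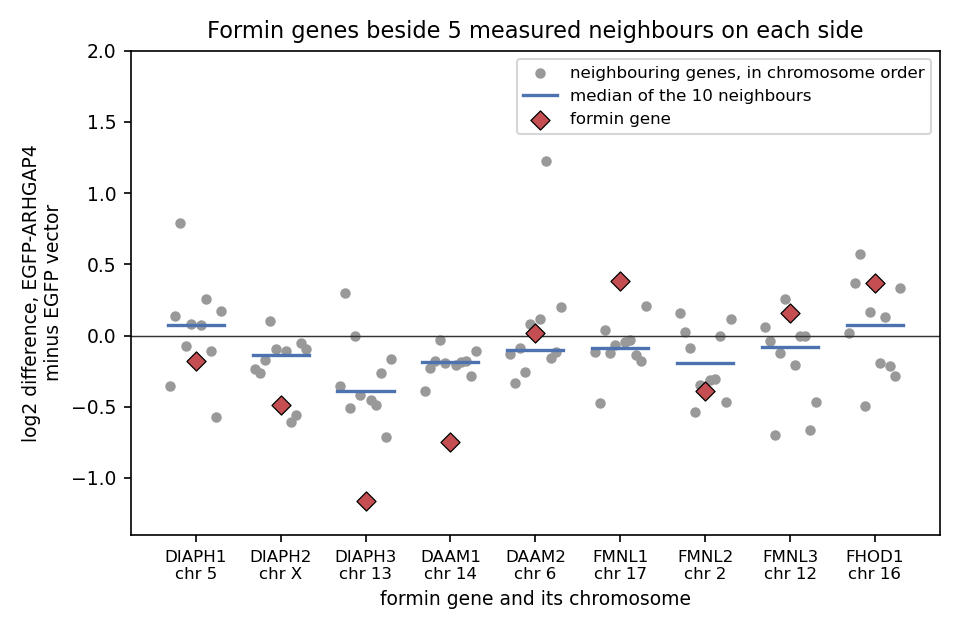
Log2 difference, EGFP-ARHGAP4 minus EGFP vector (vertical axis), of each measured formin (diamond) and of the 5 named genes past the level filter on either side of it in chromosome order (grey), with the median of these 10 neighbours as a bar. DIAPH3 and DAAM1 lie below every neighbour and FMNL1 above every neighbour, and the neighbours of DIAPH3 have the lowest median of the 9, -0.39.

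The 5 genes past the filter with the difference nearest to that of DIAPH3 were USP6NL, KNL1, PDPN, ENPP1 and ANKRD26, all within 0.02 of it on the log2 scale. This likeness rests on 1 difference between 2 arrays and says nothing of shared control. USP6NL and ANKRD26 lie on chromosome 10. KNL1, a scaffold of the kinetochore, stood at 6.88 in the vector array and 5.72 in the ARHGAP4 array. PDPN, a membrane glycoprotein, stood at 6.02 and 4.85.

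Among partners that bind formins directly, 10 of 18 were measured and none differed by 0.5 either way. Their median was -0.05 as deposited and turned to 0.05 after quantile normalization, 0.05 after centring and 0.04 after loess. The largest differences were those of SPIRE1, a nucleator that works with FMN2, at -0.26, PFN1 at -0.24, BAIAP2 at 0.18 and NCKIPSD, which binds Diaphanous formins, at 0.14. PFN1 encodes profilin, which delivers actin to the FH1 domain, and stood at 10.57 in the vector array and 10.32 in the ARHGAP4 array. In the list of profilin, capping protein and cofilin genes, 9 of 15 were measured, with a median of -0.14 and 8 below 0. Beside them, 52.9% of all measured genes and 61.4% of the genes past the filter were below 0. Of the 9, 6 passed the filter. PFN3, CFL1 and EVL lay under it, so their differences, all below 0, could not be read. After quantile normalization, centring and loess the median was -0.07, -0.04 and -0.05, with 6, 5 and 6 below 0. Under these scalings 51.2%, 41.0% and 51.6% of all measured genes were below 0. Among the 9, CFL2, a cofilin that severs filaments, was the only one past 0.5, at -0.54, where 6.47% of all measured genes were lower by that much. It did not reach 0.5 after these scalings, at -0.46, -0.44 and -0.46. ENAH was at -0.16, and PFN2, at -0.07, turned to between 0.03 and 0.04 under the same scalings. Capping protein genes were not analysed here.

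The other actin nucleators had 13 of 26 genes measured, 6 below 0 and 6 above. Of all measured genes 52.9%, and of the genes past the filter 61.4%, were below 0. Of the 13, 9 passed the filter, and WAS, LMOD1, LMOD2 and LMOD3 did not. SPIRE1 and SPIRE2 were also counted among the partners above. ACTR3B, a form of the Arp3 subunit of the Arp2/3 complex, stood at 5.76 in the vector array and 4.92 in the ARHGAP4 array, a difference of -0.84. It was the only one of the 13 past 0.5, a share near the 6.47% of all measured genes that were lower by that much. The main Arp3 gene ACTR3 was at -0.34. COBL, a nucleator of unbranched filaments, was at 0.39. MRTFA and MRTFB, coactivators held back by free actin monomers, and their partner SRF were at -0.11, -0.28 and 0.02, and MRTFA turned to 0.00 after loess.

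DIAPH3 also belongs to the machinery of cytokinesis, and most other measured genes of that process had lower values in the same array. Of 16 measured genes of 20 listed, 15 had a difference below 0, and all but RACGAP1 passed the level filter. Below 0 were also 52.9% of all measured genes and 61.4% of the genes past the filter. For 8 the difference reached -0.5 or less, where 6.47% of all measured genes and 9.81% of the genes past the filter did. The median was -0.42, and between -0.42 and -0.32 under the 4 alternative settings. The 8 became 6 after quantile normalization, 6 after centring and 5 after loess. Under these scalings 4.84%, 3.73% and 4.80% of all measured genes were lower by at least 0.5. Of the genes past the filter, 6.69%, 5.82% and 6.47% were. KIF23 and ECT2, which act at the division plane, were at -0.88 and -0.81, and PRC1 and KIF20A, of the central spindle, were at -0.73 and -0.72. SEPTIN9 was the only one above 0, at 0.22. The difference of DIAPH3 was below that of each of the 16. Only 30 of the 7685 genes past the filter were as low as DIAPH3 or lower, so this place adds little. That cell cycle genes were lower in these arrays was known when the list was written, so the list is no independent evidence, and whether the lower DIAPH3 value goes with fewer dividing cells was not tested. DVL1, DVL2 and DVL3, the Dishevelled genes whose products bind DAAM1, were not analysed here.

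**Figure D4:**
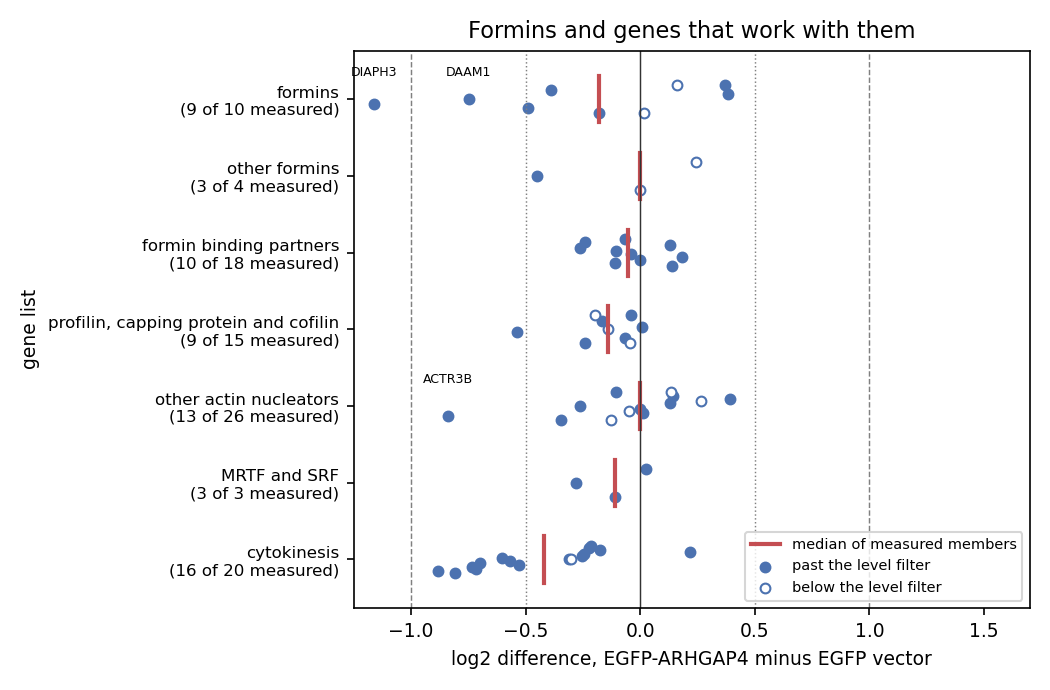
Log2 difference, EGFP-ARHGAP4 minus EGFP vector (horizontal axis), of each measured gene in the formin list and in 6 lists of related genes; filled points lie past the level filter, open points below it, and the red bar is the median of the measured members. The cytokinesis list has the lowest median, -0.42, and DIAPH3 is the lowest single gene, at -1.16.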

How the data were processed

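The deposited table holds 1 normalized log2 value per feature and array. Neither labels nor file state the summarisation, the normalization or the genome build. The log2 scale was read from the deposited values, whose maximum, 12.8, exceeds the natural log of the largest 16-bit reading, 11.1. Per the labels, total RNA was amplified with a whole-transcript kit and biotin-labelled. The platform annotation gave 1 symbol to 15835 features, several to 0 and none to 28794; all 15835 matched the GRCh38.p14 RefSeq table, used for names and gene order. Features of a gene were averaged. Genes were counted at log2 differences of 0.5 and 1. Promoter windows came from RefSeq, and all 10 formins matched; 2768 overlapping windows on opposite strands agreed as reverse complements and 0 did not.

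The members, lists and rules were chosen with earlier results of these data known. Named were all members, all listed other formins, ARHGAP4, from each pathway list the 4 passing members furthest from 0, and the 5 genes nearest to DIAPH3; others were named after their values were seen. A further pathway list is not reported here. A planned protein description was not made, since no protein sequences were used here. The number of arrays limits the precision. Alternatives were quantile normalization, centring, loess (span 0.3), the highest feature, and filters at the 0.5 and 0.75 quantiles. The tools were pandas 2.3.3 and numpy 2.4.6 under Python 3.11.15, with statsmodels 0.14.6 for loess and matplotlib 3.10.9 for plots. Feature averaging, the highest feature, quantile normalization and loess were tested on simulated data, and the other calculations were not.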

Additional observations from a re-analysis of the deposited data

How the results depend on the processing

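Under quantile normalization, centring, loess and the highest feature, none of the 9 measured formins changed sign or crossed a log2 difference of 0.5. DIAPH3 lay between -1.16 and -1.03, DAAM1 between -0.75 and -0.65, DIAPH2 between -0.49 and -0.36, DIAPH1 between -0.18 and -0.05, FMNL2 between -0.39 and -0.25, FMNL1 between 0.38 and 0.48 and FHOD1 between 0.37 and 0.47. Each formin has 1 feature, so the choice of the highest feature could not move it. The median of the 9, -0.18, became -0.10 after quantile normalization, -0.08 after centring and -0.05 after loess. It was -0.39 over the 7 members past the filter and -0.44 over the 4 past the 0.75 quantile filter, and the 2 members lower by at least 0.5 became 1 under that filter, which DAAM1 did not reach. The values under the filters follow from leaving members out. Past the filter, 30 of 7685 genes were as low as DIAPH3 or lower. These were 34 after quantile normalization, 30 after centring and 40 after loess. For DAAM1 the 202 genes became 215, 202 and 198. Without chromosome 10, chosen after seeing the data, the 30 for DIAPH3 became 17 and the 202 for DAAM1 became 161. No paired analysis was possible because there is 1 array per group. FMNL1 in both arrays, FHOD1 in the vector array and DAAM1 in the ARHGAP4 array lay less than 1 log2 unit above the filter. FMNL3 and DAAM2 lay below it.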
